A study of Mus musculus with 20 samples.

Results

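The genes described here are the 9 neuronal cytoskeleton genes Nefl, Nefm, Nefh, Ina, Mapt, Map1b, Map2, Stmn2 and Tubb3, taken by symbol from the 29200 genes of the count table, whatever their values. All 9 were found and all 9 had a mean of at least 50 counts per library, the limit for testing. They were measured by RNA-seq of polyA-enriched cerebellar RNA from 20 male C57BL6/N mice. At 2 months, the age the study calls pre-symptomatic, 5 mice were WT/WT and 5 were 304Q/304Q, and each genotype again had 5 mice at 12 months, the symptomatic age. The 304Q/304Q mice carry an expanded glutamine-coding repeat, CAG interrupted by CAA, in both copies of the murine Atxn3 gene. They are a model of spinocerebellar ataxia type 3. The gene keeps its own promoter, so the allele is not limited to a cell type. Both ages of WT/WT mice carry the wild-type gene and no group was treated.

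Neurofilaments are the intermediate filaments of neurons and fill large, myelinated axons, whose calibre they help to set. The light chain (Nefl) forms the core together with the medium chain (Nefm), the heavy chain (Nefh) and alpha-internexin (Ina), and the long tails of the medium and heavy chains project from the filament. Microtubules run beside them: Tubb3 is a neuron-specific beta tubulin, tau (Mapt) binds microtubules mainly in axons, Map2 in dendrites and cell bodies, Map1b in growing neurites, and Stmn2 (stathmin-2) binds free tubulin and is needed for axon repair. In the cerebellum, Purkinje cells, basket cells and the projection neurons of the deep nuclei are rich in the light, medium and heavy chains. Small granule cells hold little of these chains.

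Totals lay between 11385380 and 27636687 counts per library. Markers fitted the labelled tissue: the 10 Purkinje cell genes summed to 6000 to 8860 counts scaled to library size (CPM) per mouse and the 10 granule cell genes to 7250 to 9020, whereas 12 hindbrain Hox genes, which mark tissue behind the cerebellum, reached at most 1.48 CPM. The repeat length of Atxn3 cannot be read from gene counts. Atxn3 itself lay at 16.77 to 23.21 CPM in WT/WT and 11.06 to 16.82 CPM in 304Q/304Q mice at 2 months, a log2 fold change of −0.54 that did not pass the test (edgeR adjusted p = 0.0916), and at 12 months the groups overlapped. Several libraries stood apart. Ttr, a choroid plexus gene, exceeded 100 CPM in 6 libraries (304Q/304Q replicate 3 at 2 months, WT/WT replicates 1, 2 and 5 and 304Q/304Q replicates 1 and 3 at 12 months), and Acta1, a skeletal muscle gene, had 754 normalised counts in 304Q/304Q replicate 5 at 12 months and at most 56 in every other mouse. No call of a member was lost without this last library. Libraries also differed in how counts depended on GC content: WT/WT replicates 2 to 5 at 12 months had slopes of 0.137 to 0.219 log2 units per 10 points of GC, and the 304Q/304Q mice of that age −0.0744 to 0.0427. GC content over transcripts was 43.6% for Stmn2, 44.0% for Map2, 48.3% for Map1b and 48.8% for Nefl. For Mapt, Ina, Nefm, Tubb3 and Nefh it was 55.4 to 58.4%.

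All 9 genes were well expressed. To compare genes, counts were divided by exon length and given as reads per kilobase and library size (RPKM). Averaged over the 20 mice, Tubb3 was highest at 181.3 RPKM, followed by Ina at 111.8, Stmn2 at 110.2 and Mapt at 80.41, and then by Map1b at 47.57, Nefh at 45.42, Nefl at 35.96, Nefm at 33.48 and Map2 at 31.72. Even Map2 was higher than 88.3% of the 12153 tested genes. Tubb3 lay above every other member, without overlap between mice, in each of the 4 groups. Ina and Stmn2 overlapped in each group, and both lay above Mapt, which in turn lay above the lower 5 genes. Among these 5 the order differed between groups. In WT/WT mice at 12 months Nefh (50.5 ± 3.42 RPKM, SD, n = 5) overlapped with Map1b (42.0 ± 3.21), and Map2 (27.4 ± 3.58) was last. In 304Q/304Q mice at 12 months every value of Map1b (50.2 ± 3.00) lay above those of Nefh (36.4 ± 3.27). Peripherin (Prph), the intermediate filament of peripheral neurons, had at most 8 normalised counts in any mouse and was not tested.

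**Figure D1:**
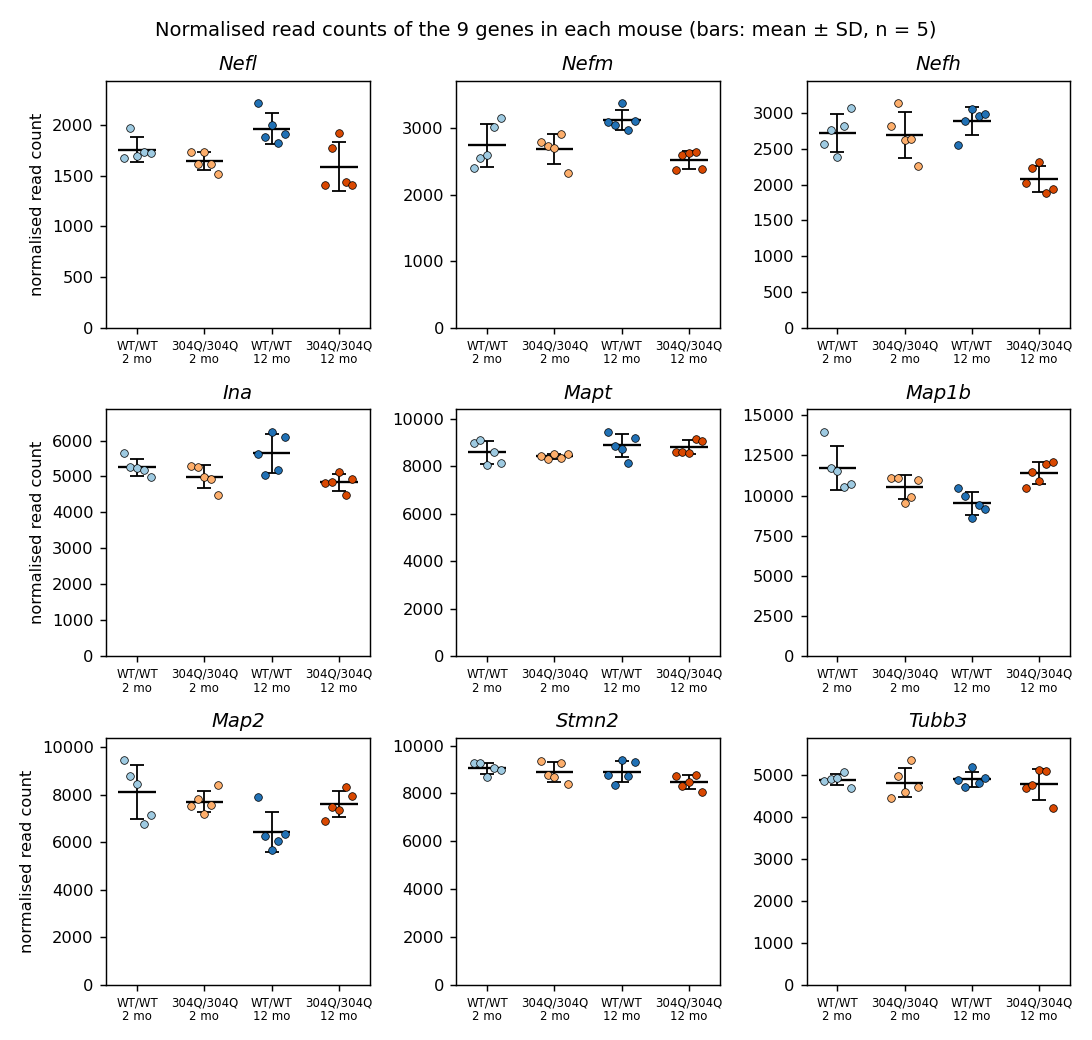
Normalised read count (y axis, from 0, 1 panel per gene) of each mouse in the 4 groups (x axis), with the group mean and SD as bars, n = 5. The 5 304Q/304Q mice at 12 months lie at 1884 to 2318 for Nefh, below all WT/WT mice of that age, while Tubb3 and Mapt are at like heights in all groups.

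The comparison of genotypes at 12 months asks what the expanded allele does to the cerebellar transcriptome once mice are symptomatic. All 4 neurofilament genes were lower in 304Q/304Q mice, by 14.3 to 28.1%, and Map1b was 19.7% higher. Of the 9 genes, 5 thus passed the test (edgeR quasi-likelihood, Benjamini-Hochberg adjusted p of at most 0.05), 4 lower and 1 higher, beside 12.5% of all tested genes, 7.30% lower and 5.23% higher. No member reached the study's further limit of a log2 fold change of 0.5, which 3.09% of all genes passed together with the test. The median log2 fold change was −0.305 over the 4 neurofilament genes and −0.0127 over the 5 microtubule genes, beside −0.00386 over all tested genes. For 3 of the 9 genes, Nefm, Nefh and Map1b, the groups did not overlap, which was the case for 8.94% of all genes.

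Nefh, the heavy chain whose tail is the most phosphorylated part of the filament, showed the largest change of the 9. Normalised counts (counts scaled to a common library size) were 2557, 2886, 3055, 2953 and 2994 in the WT/WT mice at 12 months and 2029, 2226, 2318, 1884 and 1938 in the 304Q/304Q mice. The highest 304Q/304Q mouse lay below the lowest WT/WT mouse. The log2 fold change was −0.48 (SE 0.0795, adjusted p = 0.000206), with a 95% interval from −0.644 to −0.307.

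Nefm, the medium chain, had 3091, 3042, 3372, 2974 and 3107 normalised counts in WT/WT and 2371, 2598, 2623, 2648 and 2384 in 304Q/304Q mice at 12 months, again without overlap. Its log2 fold change was −0.30 (SE 0.0698, adjusted p = 0.00473). Nefl, the light chain whose protein is followed in blood and cerebrospinal fluid as a marker of axonal damage, had 2213, 1880, 1997, 1823 and 1914 against 1413, 1778, 1917, 1439 and 1404. Here 304Q/304Q replicate 3 reached the WT/WT range, and replicates 1, 4 and 5 lay close together far below it. The log2 fold change was −0.31 (SE 0.0788, adjusted p = 0.0111). Both calls were lost when the 6 libraries with high Ttr were left out, although the changes kept their size (Nefl −0.31, adjusted p = 0.0745, and Nefm −0.32, adjusted p = 0.101), whereas Nefh still passed (−0.58, adjusted p = 0.00769).

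Ina, alpha-internexin, had 5625, 5037, 6240, 5189 and 6112 normalised counts in WT/WT and 4806, 4845, 5113, 4481 and 4926 in 304Q/304Q mice, with overlap of 1 304Q/304Q mouse (replicate 3) with the lowest WT/WT mouse. The log2 fold change was −0.22 (SE 0.0598, adjusted p = 0.0152). This call was the least stable of the neurofilament genes: it was lost with the GC trend removed (−0.16, adjusted p = 0.0806), once surrogate variables were added to edgeR (−0.16, adjusted p = 0.126) or DESeq2 (−0.15, adjusted p = 0.149), with Slc17a6 as a covariate, without the high-Ttr libraries (−0.27, adjusted p = 0.0743), and when WT/WT replicate 3 or 5 or 304Q/304Q replicate 4 at 12 months was left out.

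The microtubule genes did not move together. Map1b had 10474, 9965, 8591, 9426 and 9147 normalised counts in WT/WT and 10481, 11493, 10937, 11978 and 12068 in 304Q/304Q mice at 12 months, so that the groups touched but did not overlap. Its log2 fold change was 0.26 (SE 0.0685, adjusted p = 0.0136), and the call was lost without WT/WT replicate 3. Map2 gave nearly the same value, 0.24 (SE 0.0850), but missed the threshold (adjusted p = 0.0672), with WT/WT mice at 7883, 6243, 5681, 6064 and 6348 and 304Q/304Q mice at 6886, 7474, 7369, 8335 and 7947. WT/WT replicate 1, at 7883, lay inside the 304Q/304Q range. Map2 passed with DESeq2 (adjusted p = 0.0406), once surrogate variables were added to edgeR (adjusted p = 0.00525) or to DESeq2 (adjusted p = 0.000456), without the high-Ttr libraries (0.43, adjusted p = 0.0309), and when WT/WT replicate 1 of either age or replicate 4 at 2 months was left out.

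For tau, stathmin-2 and beta-III tubulin no difference passed the test at 12 months in edgeR. The log2 fold change of Mapt was −0.01 (95% interval −0.107 to 0.0819, adjusted p = 0.882), that of Stmn2 −0.07 (−0.164 to 0.0173, adjusted p = 0.276) and that of Tubb3 −0.04 (−0.155 to 0.0785, adjusted p = 0.694), all by edgeR. Mapt ranged from 8136 to 9445 normalised counts in WT/WT and from 8575 to 9156 in 304Q/304Q mice. Stmn2 ranged from 8342 to 9383 and from 8080 to 8774, and Tubb3 from 4704 to 5185 and from 4204 to 5108. Removal of the GC trend turned the sign of Mapt (0.05) and Tubb3 (0.04), neither of which passed there, and took Stmn2 past the threshold (−0.17, adjusted p = 0.045). Tubb3 passed as lower in DESeq2 with surrogate variables (−0.14, adjusted p = 0.0432).

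**Figure D2:**
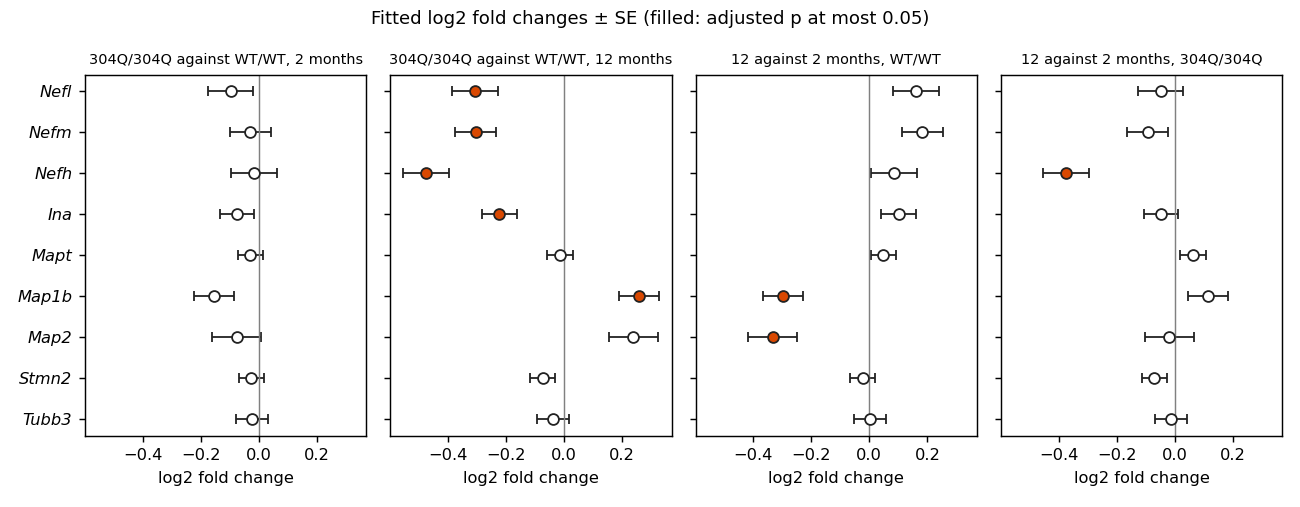
Fitted log2 fold change (x axis) of each gene (y axis) with its SE as a bar in the 4 comparisons, filled where the adjusted p was at most 0.05. Nefl, Nefm, Nefh, Ina and Map1b are filled in the 12-month comparison, none at 2 months, Map1b and Map2 with age in WT/WT mice and Nefh with age in 304Q/304Q mice.

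Genes of several cell types were lower in the same mice. At 12 months, 8 of 10 Purkinje cell genes passed the test as lower, beside 7.30% of all genes, and their sum was 7640 to 8410 CPM in WT/WT and 6000 to 6590 CPM in 304Q/304Q mice. Of 9 inhibitory interneuron genes 5 were lower (sums of 2250 to 2500 against 1850 to 1950 CPM). Pvalb, which Purkinje cells also express, made up 822 to 1050 against 632 to 720 CPM of these sums. Of 12 genes of myelinating oligodendrocytes 5 were lower (5290 to 6020 against 3490 to 4810 CPM). Of 5 blood genes 4, all of them globin genes, were lower (115 to 245 against 95.6 to 111 CPM for the sum), of 4 genes of unipolar brush cells 3 (771 to 915 against 676 to 738 CPM), a list with genes that Purkinje cells also express, and of 9 genes of astrocytes and Bergmann glia 2 (3700 to 3860 against 3480 to 3600 CPM). Among 10 granule cell genes 1 was higher and none lower. In bulk tissue, fewer cells of a type and less RNA per cell cannot be told apart, and the part of these cell types in the neurofilament values was not tested.

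The neurons of the deep cerebellar nuclei, which are rich in neurofilaments and express the vesicular glutamate transporter Slc17a6, are only a small part of the tissue. Of the 13 genes of the list for cerebellar nuclei and brainstem neurons that the table holds, 5 were tested and 1 was lower, with sums of 89.9 to 103 CPM in WT/WT and 69.9 to 98.1 CPM in 304Q/304Q mice. No gene of the list was at 0 in all mice. Of the same list, Th lay at 16.6 to 23.3 CPM in WT/WT and 8.15 to 12.5 CPM in 304Q/304Q mice at 12 months. Spp1 lay at 19.1 to 24.4 and 15.5 to 26.1 CPM. Slc17a6 had 12.2, 13.3, 12.0, 10.4 and 10.9 CPM in WT/WT mice at 12 months and 7.48, 14.1, 13.2, 3.81 and 5.26 CPM in 304Q/304Q mice, so that the genotypes overlapped. The 3 mice with the lowest Slc17a6 (replicates 1, 4 and 5) had the lowest Nefl and the lowest Nefh of the group. Nefm and Ina did not share this order. Replicate 4, with the lowest Slc17a6, had the highest Nefm of the group (2648 normalised counts). For Ina, replicate 5 (4926) lay above replicate 2 (4845). The 2 with Slc17a6 at 14.1 and 13.2 CPM had Nefh counts of 2226 and 2318, and every WT/WT mouse of that age had more. With the Slc17a6 level as a covariate, Nefm (−0.30, adjusted p = 0.0225) and Nefh (−0.41, adjusted p = 0.00381) passed the test, and Nefl (−0.18, adjusted p = 0.111), Ina (−0.19, adjusted p = 0.083) and Map1b (0.22, adjusted p = 0.0765) did not. Slc17a6 is itself a measured outcome and was chosen after seeing the data. The part of deep nuclei neurons in these values was not tested.

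**Figure D3:**
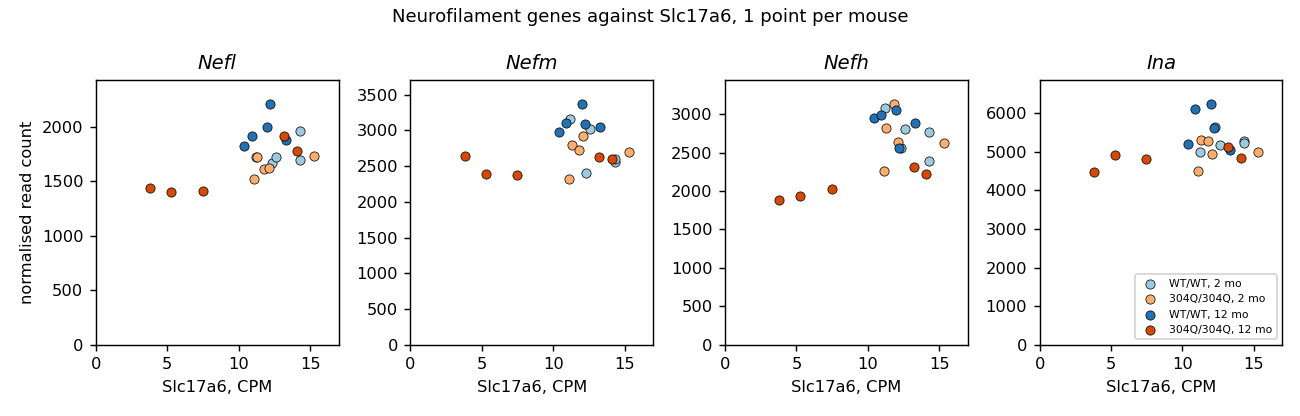
Normalised read count of the 4 neurofilament genes (y axis) against Slc17a6 in CPM (x axis), 1 point per mouse, coloured by group. In 3 304Q/304Q mice at 12 months Slc17a6 lies at 3.81 to 7.48 CPM, below all other mice, and Nefl at 1404 to 1439. Nefm lies at 2371 to 2648 in these 3 mice, which includes the highest Nefm value of their group.

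At 2 months none of the 9 genes differed between genotypes, beside 0.0494% of all genes. By edgeR, Map1b alone had an unadjusted p under 0.05 (log2 fold change −0.15, adjusted p = 0.86), and DESeq2 likewise called 0 members. Nefh had 2566, 2769, 2385, 2813 and 3076 normalised counts in WT/WT and 2816, 3135, 2624, 2635 and 2257 in 304Q/304Q mice of this age, with the ranges nearly the same. The fitted difference of Nefh was −0.02 on the log2 scale, with a 95% interval from −0.183 to 0.152. Intervals of Nefl (−0.263 to 0.0698), Nefm (−0.176 to 0.120) and Ina (−0.201 to 0.0524) also spanned 0.

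Whether the genotype effect itself differed between ages was tested as an interaction. It did for 2 of the 9 genes, beside 1.95% of all genes. The effect on Nefh was lower at 12 than at 2 months by a log2 difference of −0.46 (SE 0.112, adjusted p = 0.0298), and that on Map1b higher by 0.41 (SE 0.0968, adjusted p = 0.023). Both calls depended on single libraries. The call of Nefh was lost in 8 of 20 fits that left out 1 mouse (WT/WT replicates 1 and 3 and 304Q/304Q replicates 1 and 2 at 2 months, WT/WT replicates 3 and 5 and 304Q/304Q replicates 1 and 4 at 12 months). The call of Map1b was lost in 4 (304Q/304Q replicate 3 at 2 months, WT/WT replicates 3 and 5 and 304Q/304Q replicate 4 at 12 months). Over all 20 fits, values ranged from −0.52 to −0.40 for Nefh and from 0.34 to 0.45 for Map1b. The call was also lost for Nefh without the high-Ttr libraries (−0.57, adjusted p = 0.0753), and for both with Slc17a6 as a covariate. The interaction values of Map2 (0.31, adjusted p = 0.199), Nefm (−0.28, adjusted p = 0.167), Nefl (−0.21, adjusted p = 0.356) and Ina (−0.15, adjusted p = 0.39) did not pass. Nefm passed with surrogate variables, both in DESeq2 (−0.30, adjusted p = 0.0216) and in edgeR (−0.30, adjusted p = 0.0352), and Map2 passed without WT/WT replicate 1 at 12 months (0.40, adjusted p = 0.0337).

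The change with age was tested in each genotype, and its difference between genotypes is the same interaction. In WT/WT mice Map1b and Map2 were lower at 12 than at 2 months, 2 of 9 genes beside 11.5% of all genes and 5.42% in that direction. Map1b fell from 13967, 11722, 11545, 10550 and 10749 normalised counts to the 12-month values given above, all of them lower than the lowest young mouse, a separation seen in 6.54% of genes. Its log2 fold change was −0.30 (SE 0.0685, adjusted p = 0.00742). Map2 started from 9447, 8781, 8454, 6753 and 7151 normalised counts, and the ages overlapped. Its log2 fold change was −0.33 (SE 0.0850, adjusted p = 0.0139), and this call was lost without WT/WT replicate 1 at 2 months or replicate 3 at 12 months and when only the WT/WT mice were fitted (adjusted p = 0.0609). Map2 also differed with the GC slope of the library. At 2 months, WT/WT replicates 1 to 3 (slopes −0.204 to −0.133) had 8454 to 9447 counts. Replicates 4 and 5 (0.079 and 0.0624) had 6753 and 7151. At 12 months, replicate 1 (−0.0802) had 7883 and replicates 2 to 5 (0.137 to 0.219) had 5681 to 6348. The size of both changes depended on the processing. In 10 other settings of the test, values ranged from −0.30 to −0.19 for Map1b and from −0.34 to −0.17 for Map2. The neurofilament genes of WT/WT mice had values from 0.09 for Nefh, which turned to −0.04 with the GC trend removed, to 0.18 for Nefm, and none passed with all mice and no covariate. Nefl passed with Slc17a6 as a covariate (0.19, adjusted p = 0.0421). Nefm (adjusted p = 0.087) passed without WT/WT replicate 4 or 5 at 2 months (adjusted p = 0.0441 and 0.0228).

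In 304Q/304Q mice only Nefh of the 9 passed with age, beside 7.26% of all genes and 4.18% lower. It was lower by a log2 fold change of −0.37 (SE 0.0793, adjusted p = 0.00335). The lowest mouse at 2 months, at 2257, lay just inside the 12-month range. With Slc17a6 as a covariate the adjusted p was 0.0511. Mapt did not pass (0.06, adjusted p = 0.486), although its ages did not overlap (8287 to 8520 against 8575 to 9156), as for 7.83% of genes. Map1b (0.11, adjusted p = 0.399) and Map2 (−0.02, adjusted p = 0.943) did not pass. Map1b passed as higher with surrogate variables (0.14, adjusted p = 0.0337 in DESeq2 and 0.041 in edgeR). Both age comparisons and both genotype comparisons share groups of mice, so their values are not independent.

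The proportions of filament subunits within a mouse are given as a description, with no test. Per length, WT/WT mice at 12 months had 1.34 ± 0.0930 (SD, n = 5) Nefh for each Nefm and the 304Q/304Q mice 1.19 ± 0.0984, with ranges of 1.20 to 1.44 and 1.03 to 1.28. At 2 months the ratios were 1.44 ± 0.113 and 1.45 ± 0.131. Nefm per Nefl was alike in all groups, with means between 0.917 and 0.958. Map1b per Nefh, which joins the genes that moved in opposite directions, was 0.709 to 1.03 in WT/WT and 1.19 to 1.60 in 304Q/304Q mice at 12 months. These ranges could not overlap, since neither gene overlapped between the genotypes at that age. Map1b per Map2 lay at means of 1.42 to 1.56. Tubb3 made up 13.2 to 14.3% of the summed level of 7 beta tubulins in the group means.

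Map1b and Map2 varied together from mouse to mouse. After the group means were removed, their log2 CPM correlated with Pearson's r = 0.839 and Spearman's rho = 0.795 over 20 mice (permutation p = 1e-05 and 5e-05, adjusted over 9 pairs 9e-05 and 0.00045, the former resting on the smallest p that 100000 permutations can give). Without the 2 mice farthest from the median r was 0.794, and with the GC trend removed it was 0.852. Such r was not particular to the pair. With the group means removed, Map2 had r = 0.964 with Arfgef3 and 0.941 with Nfat5, and Map1b 0.912 with Pclo. The share of all gene pairs with such an r was not taken. The pair Mapt and Map2 gave r = 0.595 and rho = 0.600 (permutation p = 0.00553 and 0.00619, adjusted 0.0198 and 0.0226), with r = 0.524 without 2 mice. Among the 6 neurofilament pairs 1 passed, Nefm and Nefh (r = 0.590, rho = 0.588, permutation p = 0.00661 and 0.00753, adjusted 0.0198 and 0.0226). For that pair r was 0.375 without the 2 mice and 0.268 with the GC trend removed. The other 5 neurofilament pairs gave r of 0.133 to 0.383. Mice were permuted across groups, and the removed group means were not allowed for. The permutation p-values of all pairs may therefore be too small.

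The promoters of Map1b and Map2 are shown because this pair had the highest r of the 9 pairs. RefSeq's promoter table for GRCm38.p6 holds 4 of the 9 genes (Ina, Map1b, Map2 and Tubb3). Each window runs from 250 bases before the start of the gene to 50 bases after it, 5′ to 3′ on the gene's strand. Capitals mark the GC box GGGCGG or its reverse complement CCGCCC and the TATA box TATAAA or its reverse complement TTTATA. The windows are chr13:99516553-99516852, minus strand, for Map1b and chr1:66175079-66175378, plus strand, for Map2.
Map1b: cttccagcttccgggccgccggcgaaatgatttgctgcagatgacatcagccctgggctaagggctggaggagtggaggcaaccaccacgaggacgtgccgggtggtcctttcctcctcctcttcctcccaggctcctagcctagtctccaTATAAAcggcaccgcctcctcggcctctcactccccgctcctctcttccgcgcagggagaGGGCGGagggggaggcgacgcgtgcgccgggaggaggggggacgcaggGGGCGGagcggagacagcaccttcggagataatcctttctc
Map2: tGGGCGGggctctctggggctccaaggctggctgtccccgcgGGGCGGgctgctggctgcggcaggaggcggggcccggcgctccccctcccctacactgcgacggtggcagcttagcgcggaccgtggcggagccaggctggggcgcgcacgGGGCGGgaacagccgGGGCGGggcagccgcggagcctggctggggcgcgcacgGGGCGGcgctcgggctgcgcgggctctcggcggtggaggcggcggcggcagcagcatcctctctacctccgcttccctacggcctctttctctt
The Map1b window holds 2 GC boxes and 1 TATA box, and that of Map2 5 GC boxes and no TATA box. Of 32851 promoters in the table, 35.7% held a GC box and 13.6% a TATA box. CG pairs numbered 23 in Map1b and 37 in Map2, against a median of 7. Neither held a CCAAT box (CCAAT or ATTGG, 37.4% of promoters) or the letters TGACG or CGTCA (20.8%). These matches are descriptions of sequence and no binding was measured.

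Genes whose levels followed each member most closely over the 20 mice were looked up among the other 12144 tested genes. Nefh was most like Sparcl1 (r = 0.909, and 0.675 with the group means removed), which encodes an astrocytic matrix protein, and Ntsr2 (0.895 and 0.634), a neurotensin receptor of astrocytes. Nefm was most like Stard10 (0.887 and 0.843) and Ckb (0.863 and 0.783), the brain creatine kinase. For Nefl the nearest were Plin3 (0.812 and 0.729) and Ndrg1 (0.808 and 0.623), a gene of oligodendrocytes and other cells. Ina was nearest to E2f6 (0.894 and 0.841) and to a gene listed only as ENSMUSG00000051107 (0.850 and 0.778). Map1b and Map2 shared Arfgef3 (0.924 and 0.958), beside Pclo, a presynaptic scaffold, for Map1b (0.926) and Nfat5 for Map2 (0.952). Mapt was most like Cry1 (0.789) and Cic (0.788), Stmn2 like Tubb4a (0.827) and Actr1b (0.815), and Tubb3 like Dlg4 (0.833) and Tmem14a (0.718). These r are the highest of 12144 and are descriptions. For Stmn2 they fell to 0.272 and 0.220 with the GC trend removed.

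The surrounding cytoskeleton was described with 9 further lists of 119 tested genes. At 12 months 13 of 119 passed, 6 higher and 7 lower, with a median log2 fold change of 0.00324, beside the 12.5% of all tested genes that passed. Among 7 other intermediate filament genes 0 passed (2 had an unadjusted p under 0.05), among 12 tubulins 1 was higher and 3 lower, and among 25 other microtubule-associated proteins 1 was higher and 1 lower. Of 18 axonal motor genes 2 were higher, of 8 stathmins and CRMPs 2 were lower, of 14 spectrins and linkers 1 was lower, and of 12 tau and neurofilament kinases 0 passed (1 with an unadjusted p under 0.05). Of 15 tubulin-severing and modifying enzymes 1 was higher, and of 8 axon growth proteins 1.

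The largest of these was Marcks, an actin-binding substrate of protein kinase C, with 612 to 1165 normalised counts in WT/WT and 1341 to 2062 in 304Q/304Q mice at 12 months (log2 fold change 1.20, SE 0.206, adjusted p = 0.00027). Tuba8, an alpha tubulin, had 1312 to 1497 against 941 to 1070 (−0.47, adjusted p = 1.1e-05). Stmn1, stathmin, had 2529 to 2913 against 1925 to 2169 (−0.40, adjusted p = 3.5e-05). Hdac6, a tubulin deacetylase, was higher by 0.32 (adjusted p = 0.00141), and Clasp2, which binds microtubule plus ends, by 0.31 (adjusted p = 0.000136). In the interaction 3 genes of these lists passed, among them Tuba8 (−0.52, adjusted p = 0.00164) and Stmn1 (−0.40, adjusted p = 0.00821).

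**Figure D4:**
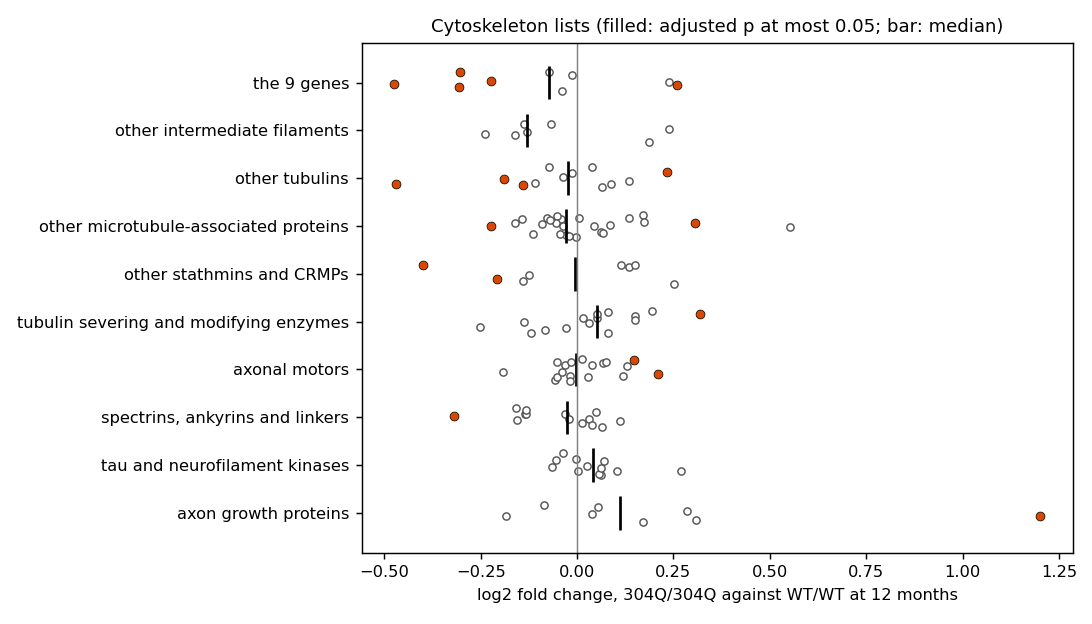
Log2 fold change of 304Q/304Q against WT/WT mice at 12 months (x axis) for the 9 genes and 9 further cytoskeleton lists (y axis), filled where the adjusted p was at most 0.05, with the list's median as a bar. The 4 neurofilament genes are the filled points left of 0 in the top row, and Marcks is the point at 1.20.

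With age in WT/WT mice 22 of 119 passed, 8 higher and 14 lower, beside 11.5% of all genes. The count was 13 with only the WT/WT mice fitted and 10 without WT/WT replicate 1 at 2 months. The largest were Dcx (doublecortin, a protein of migrating and immature neurons, −0.97, adjusted p = 0.0418), Marcks (−0.77, adjusted p = 0.0179), Map1s (0.45, adjusted p = 0.00266), Dpysl3 (−0.42, adjusted p = 0.00841), Marcksl1 (−0.39, adjusted p = 0.00366) and Dclk1 (−0.37, adjusted p = 0.00701). Marcks at 2 months had 1515 to 1728 normalised counts in WT/WT replicates 1 to 3, whose GC slopes were −0.204 to −0.133. Replicates 4 and 5, with slopes of 0.079 and 0.0624, had 910 and 873. In 304Q/304Q mice 11 passed, 2 higher and 9 lower, beside 7.26% of all genes, led by Gfap (the astrocytic filament, 0.48, adjusted p = 0.000875), Dpysl4 (−0.36, adjusted p = 0.000891), Tuba8 (−0.32, adjusted p = 0.00112), Kif5a, a neuronal kinesin (0.32, adjusted p = 3e-05), Stmn4 (−0.32, adjusted p = 0.00319) and Marcksl1 (−0.30, adjusted p = 0.0236). At 2 months 0 of the 119 differed between genotypes by edgeR (9 had an unadjusted p under 0.05) and 0 by DESeq2.

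Some members share exons with other genes. On GRCm38, Nefl (chr14:68083863-68089095, plus strand) and Nefm (chr14:68082590-68124846, minus strand) lie on opposite strands, with 32.8% of Nefl's and 19.2% of Nefm's exon bases shared, and 14.1% of Ina's exon bases are shared with Nt5c2. Libraries were made with a stranded kit, but whether the counting used strand is not given in the sources used here, so part of these counts may be divided between the overlapping genes. Nefh (chr11:4938754-4948064) shares no exon base with another gene.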

How the data were processed

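Cerebellar RNA of 20 mice was sequenced in paired ends after polyA enrichment. The authors aligned reads to GRCm38 (Ensembl annotation) with STAR and used Rsubread for counting, and the deposited table holds their raw counts. Every column was matched to 1 mouse by its name. Symbols, exon lengths and GC content came from GENCODE M21, which held 29150 of 29200 gene IDs.

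From the counts, libraries were scaled by TMM and 12153 genes averaging 50 or more counts (99.31% of all counts) were tested with the quasi-likelihood test of edgeR 4.0.16 in R 4.3.3, in 1 model of the 4 groups. P-values were adjusted over all tested genes. The biological coefficient of variation was 0.113, so at these levels the spread between mice limits precision more than counting does. Intervals of 95% used 16 residual degrees of freedom. Replicates of a group differed by more than sampling noise (chi-square per degree of freedom at least 4.43). Log2 CPM used a prior count of 2.

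Genes and lists were chosen with earlier results of these data known. Named beside the 9 members are the 6 genes with the largest change among those called in the wider lists and, for each member, the 2 genes most like it. The values of 1 gene named by this rule are not reported here. Alternatives were DESeq2 1.42.0, surrogate variables (3, sva 3.50.0), other size factors and filters, only the groups compared, a replicate block, GC trend removal and each mouse left out. Further fits (high-Ttr libraries left out, Slc17a6 as a covariate) were chosen after seeing the data.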

Additional observations from a re-analysis of the deposited data

Results flagged for a closer look

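In 36 sets of 5 mice (9 genes in 4 groups) 1 mouse stood far from the rest of its group. Nefl in WT/WT mice at 2 months had its highest value, 1968 normalised counts, in replicate 2, with a gap of 0.81 of the group's range to the next mouse, where 0.71 is the limit. Chance gives about 1 such case in 20 groups.

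For 2 genes the genotype effect differed between ages by the interaction test in edgeR. The log2 difference between the effect at 12 and that at 2 months was −0.46 for Nefh (adjusted p = 0.0298) and 0.41 for Map1b (adjusted p = 0.023).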

How the results depend on the processing

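At 12 months the calls of Nefl, Nefm and Nefh as lower in 304Q/304Q mice remained in 10 other settings of the test and in all 20 fits without 1 mouse, with log2 fold changes of −0.35 to −0.30, −0.37 to −0.24 and −0.48 to −0.40 in those 10. They did not all remain in the fits added after seeing the data. Without the 6 high-Ttr libraries 3 of 9 members passed at 12 months (Nefh, Map1b and Map2), 1 in the interaction, and of the wider lists 6 at 12 months and 5 with age in 304Q/304Q mice. With Slc17a6 as a covariate 2 members passed at 12 months (Nefm and Nefh), 0 with age in 304Q/304Q mice and 0 in the interaction, and 7 of the wider lists with age in 304Q/304Q mice. Slc17a6 is itself a measured outcome, and the first fit has fewer mice (14 of 20). With surrogate variables, 1 gene of the wider lists passed at 2 months (DESeq2 and edgeR), 2 members (Nefh and Map1b) and 23 (DESeq2) or 21 (edgeR) genes of the wider lists with age in 304Q/304Q mice, and 7 of the wider lists in the interaction. With only the WT/WT mice fitted, 1 member and 13 genes of the wider lists passed with age. The interaction needs all 4 groups and has no such fit.

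When 1 mouse at a time was left out, members called ranged from 3 to 6 at 12 months, 1 to 3 with age in WT/WT mice, 1 to 1 in 304Q/304Q mice and 0 to 3 in the interaction, and stayed at 0 at 2 months. In the wider lists the ranges were 9 to 18, 10 to 33, 6 to 13 and 2 to 7. The lowest member counts came without WT/WT replicate 3 at 12 months (3 at 12 months, 1 for age in WT/WT mice and 0 for the interaction), without WT/WT replicate 1 at 2 months (1 with age) and without WT/WT replicate 5 or 304Q/304Q replicate 4 at 12 months (0 in the interaction). The lowest counts of the wider lists came without WT/WT replicate 1 at 2 months (10 with age) and without 304Q/304Q replicate 1 or 2 at 2 months (6 with age), and the highest of the interaction without WT/WT replicate 1 at 12 months (7).

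Replicate numbers did not pair the mice: of 30 same-numbered pairs 6 had a correlation of deviations over 0.1, with a range of −0.323 to 0.551. With the replicate number as a block, 5 members were called at 12 months, 2 and 1 with age in WT/WT and 304Q/304Q mice, 2 in the interaction and 0 at 2 months, as without it.

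Signs turned for genes that had not passed, each close to 0, and the cause was not tested. At 2 months Map2 became 0.022 (DESeq2) and 0.020 (edgeR) with surrogate variables and Stmn2 0.0032 with the GC trend removed. Without 1 mouse, Nefm ranged from −0.072 to 0.028, Nefh from −0.074 to 0.046, Stmn2 from −0.045 to 0.00070 and Tubb3 from −0.063 to 0.0044. At 12 months Mapt became 0.0037 (DESeq2 with surrogate variables), 0.050 (GC trend removed) and 0.080 (without high Ttr), and Tubb3 0.036 (GC trend removed). The ranges without 1 mouse were −0.042 to 0.011 for Mapt and −0.064 to 0.00085 for Tubb3.

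With age in WT/WT mice, Nefh became −0.014 and −0.010 with surrogate variables (DESeq2, edgeR) and −0.040 with the GC trend removed, a removal that also turned Mapt (−0.029), Stmn2 (0.10) and Tubb3 (−0.12). Without high Ttr, Mapt was −0.025 and Stmn2 0.00090, and Tubb3 was −0.0021 with the filter of filterByExpr and −0.00080 with no filter. The ranges without 1 mouse were −0.042 to 0.00038 for Stmn2 and −0.017 to 0.018 for Tubb3. With age in 304Q/304Q mice, Map2 became 0.010 and 0.0081 with surrogate variables (DESeq2, edgeR) and 0.012 without high Ttr, and with the Slc17a6 covariate Nefl was 0.094 and Tubb3 0.0032. Their ranges without 1 mouse were −0.054 to 0.015 for Map2 and −0.039 to 0.028 for Tubb3. In the interaction Mapt became −0.0033 with the Slc17a6 covariate and Tubb3 0.091 with the GC trend removed, with ranges of −0.014 to 0.039 and −0.043 to 0.025 without 1 mouse.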
